A study of Mus musculus with 6 samples.

Results

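Genes that drive or restrain the deposition of calcium phosphate mineral were followed in mouse knee chondrocytes, the cells of cartilage, at an embryonic and an adult stage. The 10 genes are *Alpl*, *Phospho1* and *Enpp1* (enzymes), *Slc20a1* and *Slc20a2* (phosphate transporters), *Mgp*, *Spp1* and *Ahsg* (inhibitors of mineral growth), and *Ibsp* and *Bglap* (bone matrix proteins). They were chosen by name from a list of known mineralization genes and found in the expression matrix through their Ensembl identifiers, 10 of 22032 genes, and each had a row. The choice was made with earlier results of these data known. All are protein-coding, and their positions below are those of GENCODE on GRCm38.

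RNA sequencing was done on 3 embryonic and 3 adult samples of knee cartilage. The embryonic samples came from mice at E16.5, where the labels write the unit as weeks and the methods as embryonic days, and the adult samples from mice aged 2 months. The methods name male B6 animals for the adult stage, and the strain and sex of the embryos were not given in the sources used here. No genetic alteration or treatment was named for either stage. In all 6 samples the cells had been digested out of the cartilage and sorted as negative for CD31, CD45, Ter119 and ALP (alkaline phosphatase) and positive for BMPR1B, a bone morphogenetic protein receptor. The design names biological replicates but not how many animals went into a sample. If samples of a stage shared animals, the p-values would measure technical spread. Stage cannot be told apart from any other property in which the embryos and the adults differed.

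Mineral forms where phosphate is freed and its inhibitors are removed. In growth plate and bone, cells bud off matrix vesicles in which phosphatases release phosphate, while pyrophosphate, made outside the cell from nucleotide triphosphates or exported from it, blocks crystal growth. Tissue-nonspecific alkaline phosphatase degrades pyrophosphate, and a group of acidic or vitamin K-dependent proteins in the matrix binds crystals. Articular cartilage stays unmineralized through life except for its deepest, calcified zone, whereas growth plate cartilage mineralizes before bone replaces it.

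Most of the 10 genes had higher levels in adult chondrocytes. Levels are given as TPM, an abundance of transcripts corrected for their length and scaled to one total per sample, and differences as adult minus embryonic on the log2(TPM + 1) scale, which understates the change of low genes. Of the 10 genes, 9 had a mean of at least 1 TPM and were tested with limma, a linear model fitted over 13125 genes, and all 9 rose at an adjusted p under 0.05, a call that 23.9% of all genes tested shared in that direction and 45.3% in either direction. *Bglap* passed the filter only through its adult values, so that its direction was fixed by the filter. *Ahsg* did not pass. In the same 9 genes every adult sample lay above every embryonic one, as it did in 30.7% of all genes tested (56.5% with either stage above). Their median difference was 2.17, next to 0.16 over all genes tested. These comparisons with all genes are limited by a choice of members made with earlier results known.

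In these bulk samples, fewer cells of a type and less RNA per cell cannot be told apart. The 10 genes together held 0.234%, 0.268% and 0.220% of all TPM in embryonic samples 1 to 3, and 0.804%, 1.04% and 1.06% in adult samples 1 to 3. The 20 highest genes of each sample, taken sample by sample, held 10.7% to 11.1% of TPM in the embryo and 14.6% to 17.7% in the adult. Median-of-ratios scaling moved the median difference of all genes from 0.16 to 0.03, and all changes below are to be read against that shift.

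**Figure D1:**
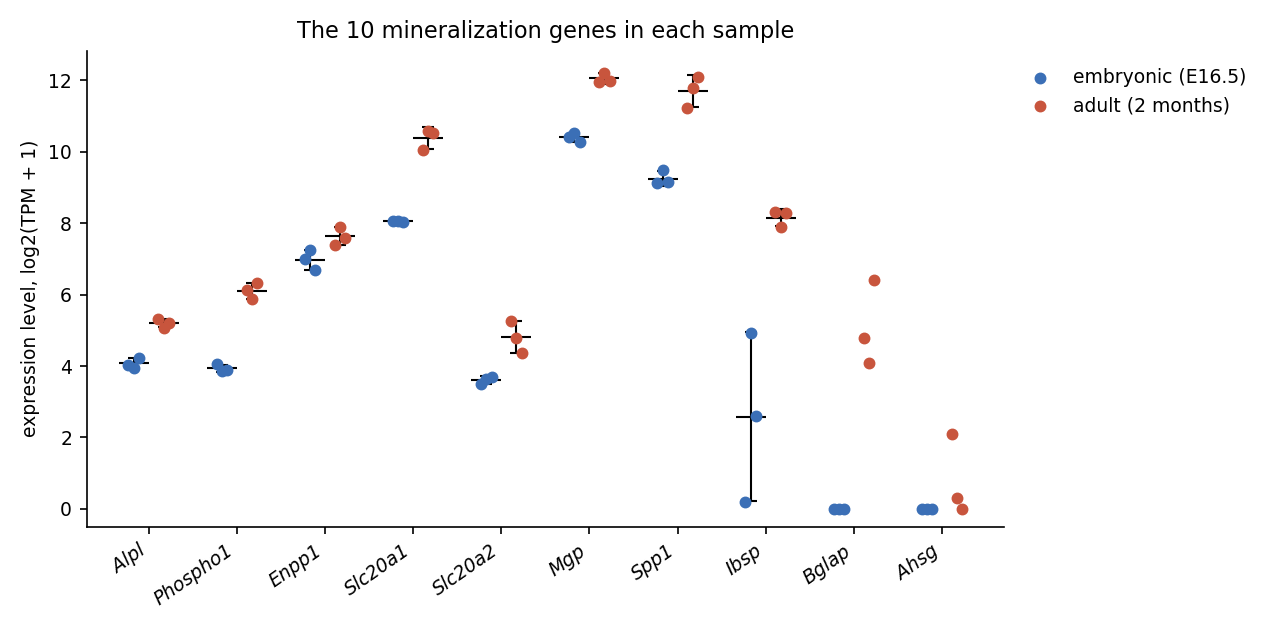
Level of each of the 10 mineralization genes, as log2(TPM + 1), in the 3 embryonic (blue) and 3 adult (red) samples, with bars for the mean and SD of a stage except where a sample was listed at 0. The adult points of 9 genes lie above all embryonic points, with the embryonic points of *Ibsp* widely spread and *Bglap* at 0 in the embryo.

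The 3 enzymes differed in how far they moved. *Alpl* encodes tissue-nonspecific alkaline phosphatase, which splits pyrophosphate into phosphate. The gene lies at chr4:137741733-137796384. It was at 15.4, 14.4 and 17.9 TPM in the embryo against 38.6, 32.7 and 36.0 TPM in the adult. The stages did not overlap, and *Alpl* rose by 1.13 ± 0.21 (SE, n = 3 per stage, limma adjusted p = 0.00292). The protein of this gene was the one gated against in the sort, so that the transcript was measured at 14.4 TPM or more in cells taken as ALP-negative at both stages. Where the gate fell at each stage is not given in the sources used here, and its part in the difference was not tested.

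*Phospho1* encodes a phosphatase inside matrix vesicles that frees phosphate from phosphocholine and phosphoethanolamine. The gene lies at chr11:95824499-95832140. It stood at 15.6, 13.6 and 13.8 TPM in the embryonic and 68.6, 58.0 and 79.0 TPM in the adult samples. Even the lowest adult sample had 3.70 times the level of the highest embryonic one, and the difference was 2.17 ± 0.20 (SE, limma adjusted p = 6.66e-05). *Alpl* and *Phospho1* were thus near one level in the embryo, where their ranges overlapped, and apart in the adult. In GENCODE a transcript of *Zfp652* runs through this locus on the same strand, and 85.4% of the 50-base stretches of *Phospho1* transcripts also occur in *Zfp652* transcripts. *Zfp652*, looked at only after its values were seen, was at 20.4 to 31.2 TPM in the embryonic and 26.2 to 27.9 TPM in the adult samples, ranges that overlap.

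*Enpp1* encodes the ectoenzyme that makes extracellular pyrophosphate from ATP, and so works against the other enzymes. From chr10:24637914-24712159 it gave 125, 150 and 102 TPM in the embryo against 168, 238 and 192 TPM in the adult. The stages came close, with the lowest adult sample at 1.11 times the highest embryonic one. The difference of 0.66 (95% interval 0.24 to 1.08, limma adjusted p = 0.0186) was the smallest of the 9 tested. Its call was lost under 6 of 15 alternatives, with adjusted p = 0.057 under median-of-ratios scaling, 0.0919 with no filter on low values and 0.0639 without the variance trend. Leaving out embryonic sample 1, embryonic sample 3 or adult sample 2 also ended it (adjusted p = 0.0573, 0.0745 and 0.059).

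Sodium-dependent phosphate transporters bring phosphate into the cell. *Slc20a1* (PiT-1, chr2:129198764-129211616) was at 263, 268 and 262 TPM in the embryo, the tightest values on the log2 scale among the members above 0, and went to 1052, 1539 and 1471 TPM in the adult. It rose by 2.33 ± 0.16 (SE, limma adjusted p = 1.12e-05), a mean level 5.12 times as high. *Slc20a2* (PiT-2, chr8:22476788-22569612), its close relative, was far lower, at 10.3, 11.4 and 12.0 TPM in the embryonic and 37.2, 26.7 and 19.8 TPM in the adult samples. Its stages did not overlap either, and it rose by 1.20 ± 0.29 (SE, adjusted p = 0.00923). The *Slc20a1* transcript stood above the *Slc20a2* transcript in every sample. Genes on the opposite strand overlap both, sharing 9.46% of the 50-base stretches of *Slc20a1* and 0.732% of those of *Slc20a2*, and whether strand was used in counting is not given in the sources used here.

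*Mgp* and *Spp1* encode inhibitors of crystal growth and were the most abundant of the 10 genes at both stages. *Mgp*, or matrix Gla protein, is a vitamin K-dependent protein whose loss in mice calcifies arteries and cartilage. Its gene spans chr6:136872435-136875823. It was at 1356, 1476 and 1230 TPM in the embryo against 3965, 4742 and 4035 TPM in the adult, with no overlap. The rise was 1.65 ± 0.13 (SE, limma adjusted p = 3.19e-05), and by its mean level *Mgp* ranked 97 of all genes in the embryo and 14 in the adult. *Spp1*, or osteopontin, is a phosphorylated acidic protein that binds crystals and integrins. It was at 553, 714 and 561 TPM in the embryo against 2368, 3508 and 4376 TPM in the adult. It rose by 2.45 ± 0.22 (SE, adjusted p = 5.45e-05), and its rank went from 233 to 22. A predicted gene on the same strand shares 11.6% of the 50-base stretches of *Spp1*. The adult values of *Mgp* and *Spp1* overlapped, while in the embryo *Mgp* lay above *Spp1* in every sample.

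*Ahsg* encodes fetuin-A, a serum protein of hepatocyte origin that keeps calcium phosphate in solution (chr16:22891277-22899449). In the embryo all 3 samples were listed at 0, and the adult ones stood at 3.26, 0.241 and 0 TPM. With a mean of 0.583 TPM it was under the filter, and its stages overlapped. Without the filter its limma adjusted p was 0.5. Of 8 hepatocyte markers 7 had a row, and *Alb*, *Afp*, *Apob*, *Ttr* and *Fgb* were at 0 in every sample. The summed hepatocyte markers ran from 1.25 to 3.52 TPM in the embryonic and from 1.42 to 8.86 TPM in the adult samples.

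*Ibsp* and *Bglap*, typical of osteoblasts and bone matrix, were low or at 0 in the embryo. *Ibsp*, bone sialoprotein, is an acidic protein that starts crystal growth in vitro. Its embryonic samples were at 0.148, 29.6 and 5.07 TPM and its adult samples at 316, 235 and 308 TPM. The embryonic samples were widely spread (log2 level 2.58 ± 2.37, SD, n = 3) and the adult ones close together (8.16 ± 0.24), and the lowest adult sample was still 7.94 times the highest embryonic one. *Ibsp* rose by 5.58 ± 0.94 (SE, limma adjusted p = 0.00164), with a 95% interval of 3.44 to 7.71. The size depended on single embryonic samples, at 4.39 without sample 1 and 6.75 (adjusted p = 0.000578) without sample 2.

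*Bglap*, osteocalcin, is a vitamin K-dependent protein secreted by osteoblasts that binds hydroxyapatite. All 3 embryonic samples were listed at 0, against 26.8, 15.8 and 83.9 TPM in the adult (limma adjusted p = 0.000205). A value of 0 need not mean an absent transcript, and no fold is given. Across the 22032 genes, 6 zeros occurred in genes that reached 20 TPM in both other samples of that stage. Those were zeros of single samples, so that they do not speak to a gene at 0 in all 3. Its neighbours *Bglap2* and *Bglap3* are near-copies of it, and 51.3% of the 50-base stretches of *Bglap* transcripts also occur in *Bglap2*. Reads of 50 bases therefore could have been divided between them by the authors' estimation, and the 3 genes were also summed. The sums were 2.39, 0 and 5.31 TPM in the embryonic and 57.9, 25.4 and 131 TPM in the adult samples (adjusted p = 0.00162), with no overlap.

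**Figure D2:**
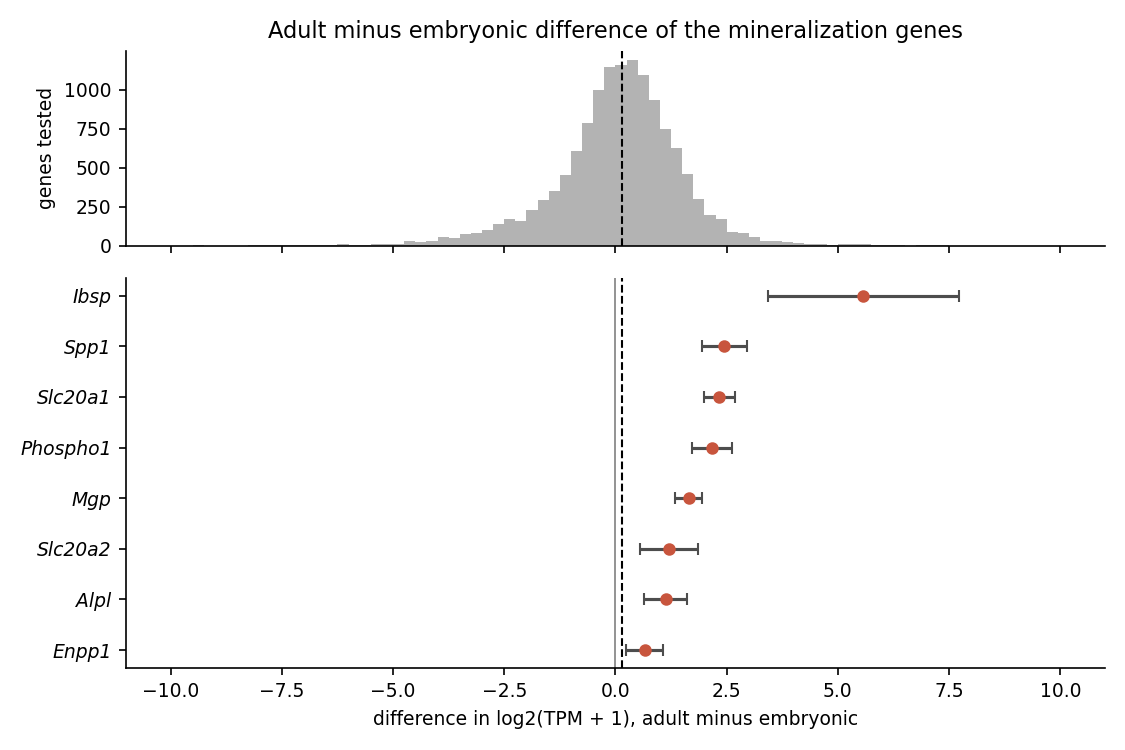
Upper panel, number of genes tested by their adult minus embryonic difference in log2(TPM + 1). Lower panel, the same difference (points) with its 95% interval (bars) for 8 of the tested mineralization genes, leaving out *Bglap*, which was at 0 in the embryo. The dashed line is the median of all genes (0.16), and the intervals run from 0.24 at the lower end for *Enpp1* to 7.71 at the upper end for *Ibsp*.

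The plot of differences against all genes places the members on one scale. *Ibsp* stood above 99.8% of the genes tested, *Spp1* above 96.8%, *Slc20a1* above 96.2%, *Phospho1* above 95.2% and *Mgp* above 90.7%. *Slc20a2* (82.6%), *Alpl* (81.0%) and *Enpp1* (67.9%) lay nearer to the bulk of genes. With an added demand for a difference of at least 1, 17.3% of all genes were called higher, and of the 9 tested members *Enpp1* alone fell short of it.

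The sequence upstream of *Bglap*, *Spp1* and *Ibsp* is shown because these are the bone matrix genes among the members that rose, and transcription factors of bone cells are known to act there. The sequences are those of RefSeq on GRCm38.p6, written 5′ to 3′ on the strand of the gene, and end before both the RefSeq and the GENCODE start of the gene. Capitals mark matches to ACCACA, the core that Runx factors bind, or to CAATTA, the reverse strand of a core of homeodomain factors such as Dlx and Msx. *Bglap* is shown at chr3:88384467-88384716 on the minus strand, *Spp1* at chr5:104434861-104435110 on the plus strand and *Ibsp* at chr5:104299037-104299170 on the plus strand.
Bglap: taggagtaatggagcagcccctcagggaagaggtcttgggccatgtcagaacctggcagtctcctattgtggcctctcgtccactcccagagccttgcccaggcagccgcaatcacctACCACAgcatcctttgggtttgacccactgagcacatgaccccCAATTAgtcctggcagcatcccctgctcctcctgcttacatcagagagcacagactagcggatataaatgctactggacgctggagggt
Spp1: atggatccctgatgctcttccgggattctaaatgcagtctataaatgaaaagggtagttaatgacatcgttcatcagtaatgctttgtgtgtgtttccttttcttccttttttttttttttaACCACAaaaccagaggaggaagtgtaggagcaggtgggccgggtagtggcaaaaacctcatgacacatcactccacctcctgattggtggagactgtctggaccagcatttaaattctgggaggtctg
Ibsp: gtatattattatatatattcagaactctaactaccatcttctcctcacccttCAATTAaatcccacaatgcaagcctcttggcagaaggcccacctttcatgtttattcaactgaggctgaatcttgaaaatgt

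Promoter windows of 250 bases before to 50 after the start were at hand for 8 of the 10 members, all but *Mgp* and *Slc20a2*, and for 27025 genes in all. ACCACA or its reverse TGTGGT was found in the windows of *Bglap*, *Enpp1*, *Slc20a1* and *Spp1*, 4 of 8, and in 16.9% of all windows. TAATTG or CAATTA was found for *Bglap* and *Ibsp*, 2 of 8, and in 8.14% of all windows. TATAAA or TTTATA occurred for *Bglap*, *Ibsp*, *Slc20a1* and *Spp1*, 4 of 8, against 14.2% of all. This match stood at -28 from the start site for *Ibsp*, at -211 for *Spp1* and at -1, across the start site, for *Slc20a1*. Counted from the start site, the ACCACA of *Bglap* stood at -132, its CAATTA at -89 and its TATAAA at -27, with no overlap. A match describes the letters alone. The windows also split by CpG content. The ratio of observed to chance CpG was 0.169 for *Bglap*, 0.195 for *Spp1*, 0.311 for *Ibsp* and 0.332 for *Ahsg*, below the median of 0.389 over all genes. It was above that median for the enzymes and for *Slc20a1*, at 0.72 for *Alpl*, 0.772 for *Enpp1*, 0.903 for *Slc20a1* and 0.947 for *Phospho1*. On GRCm38 the printed window of *Spp1* lies just before the gene at chr5:104435118-104441050, that of *Ibsp* before chr5:104299171-104311469, and that of *Bglap* before chr3:88383501-88384464.

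Ordered by level, the embryonic samples ran from *Mgp* over *Spp1*, *Slc20a1* and *Enpp1* down to *Alpl*, *Phospho1*, *Slc20a2* and *Ibsp*, with *Bglap* and *Ahsg* last at 0. *Alpl* and *Phospho1* overlapped, and the wide range of *Ibsp* overlapped those of *Alpl*, *Phospho1* and *Slc20a2*. In the adult samples *Ibsp* moved up beside *Enpp1*, whose values it overlapped, and *Phospho1* moved above *Alpl*. The range of *Bglap* overlapped those of *Phospho1*, *Alpl* and *Slc20a2*, with *Bglap* above *Phospho1* in adult sample 3, and *Ahsg* was again last.

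Ratios of pairs within a sample depend on the scaling between samples only through the pseudocount of 1 added to each level. Of such ratios, 4 were tested with an exact two-sided permutation test, which with 3 samples against 3 cannot go below p = 0.1. *Alpl* to *Enpp1* sets a gene of pyrophosphate removal against a gene of its production. The log2 ratio was -2.95, -3.30 and -2.45 in the embryonic and -2.09, -2.82 and -2.38 in the adult samples. These overlapped, and the difference of 0.47 had an exact p = 0.2. The ratio leaves out pyrophosphate export, and the protein of *Alpl* was gated against in the sort. *Slc20a1* to *Slc20a2* went from a log2 ratio of 4.44 ± 0.10 (SD, n = 3) to 5.58 ± 0.71, with no overlap (exact p = 0.1, adjusted over the 4 ratios p = 0.133).
*Mgp* to *Spp1* went from 1.16 ± 0.13 to 0.35 ± 0.44, again with no overlap (exact p = 0.1). *Alpl* to *Phospho1* went from 0.13 ± 0.19 to -0.91 ± 0.18 (exact p = 0.1), so that *Phospho1* was above *Alpl* in all adult samples. For the 3 pairs that did not overlap, the exact p was thus the smallest the design allows and did not pass the threshold.

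**Figure D3:**
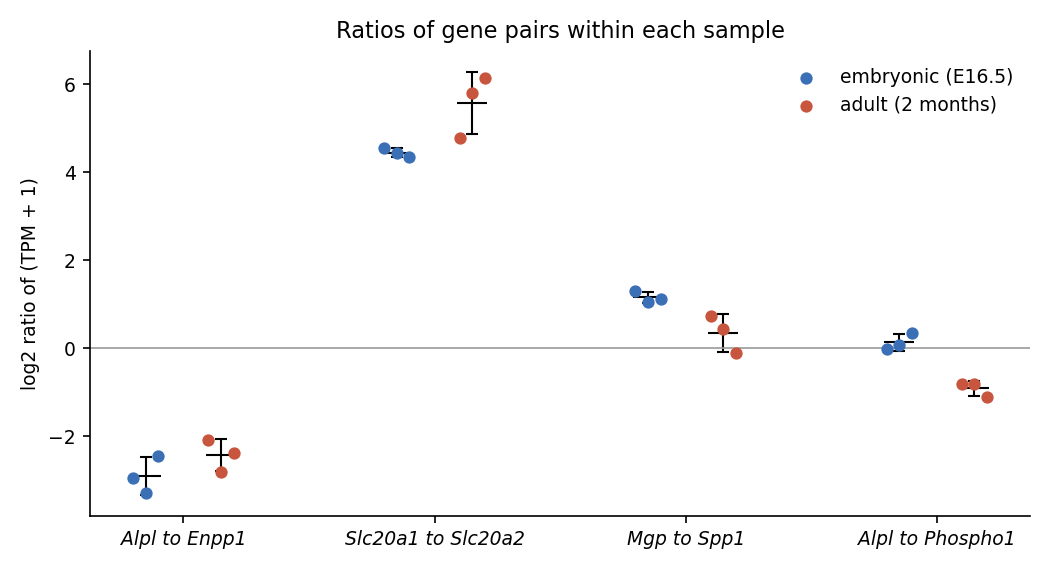
Log2 ratio of (TPM + 1) of 4 pairs of mineralization genes in each sample, embryonic in blue and adult in red, with bars for the mean and SD. The stages overlap for *Alpl* to *Enpp1* and do not overlap for the other 3 pairs.

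*Ibsp* and *Spp1* belong to a family of small integrin-binding ligand N-linked glycoproteins whose 5 genes stand side by side on chromosome 5 within 270.3 kb, in the order *Dspp*, *Dmp1*, *Ibsp*, *Mepe* and *Spp1*. Their neighbours gave other values. *Dmp1*, made by osteocytes and odontoblasts, was at 10.6, 16.3 and 10.1 TPM in the embryo against 0.0611, 0.0633 and 3.51 TPM in the adult, and fell by 2.92 on the log2 scale (limma adjusted p = 0.00495), or by 3.62 without adult sample 3. *Mepe* was at 0 in the embryo and at 3.15, 0 and 9.54 TPM in the adult (adjusted p = 0.0952, or 0.0101 without adult sample 2). *Dspp*, the dentin gene, was at 0 in every sample. In the second cluster, the 3 osteocalcin genes lie within 15.85 kb of chromosome 3. *Bglap2* was at 0 in the embryo and at 13.4, 0.26 and 43.9 TPM in the adult (adjusted p = 0.0409, lost under 7 of 15 alternatives, with 0.212 without the filter). Like *Bglap*, *Bglap2* and *Mepe* passed the filter only through their adult values, so that their direction was fixed by it. *Bglap3* was at 2.39, 0 and 5.31 TPM in the embryonic and 17.8, 9.33 and 3.54 TPM in the adult samples (adjusted p = 0.0827, or 0.0496 without adult sample 3), with overlap.

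**Figure D4:**
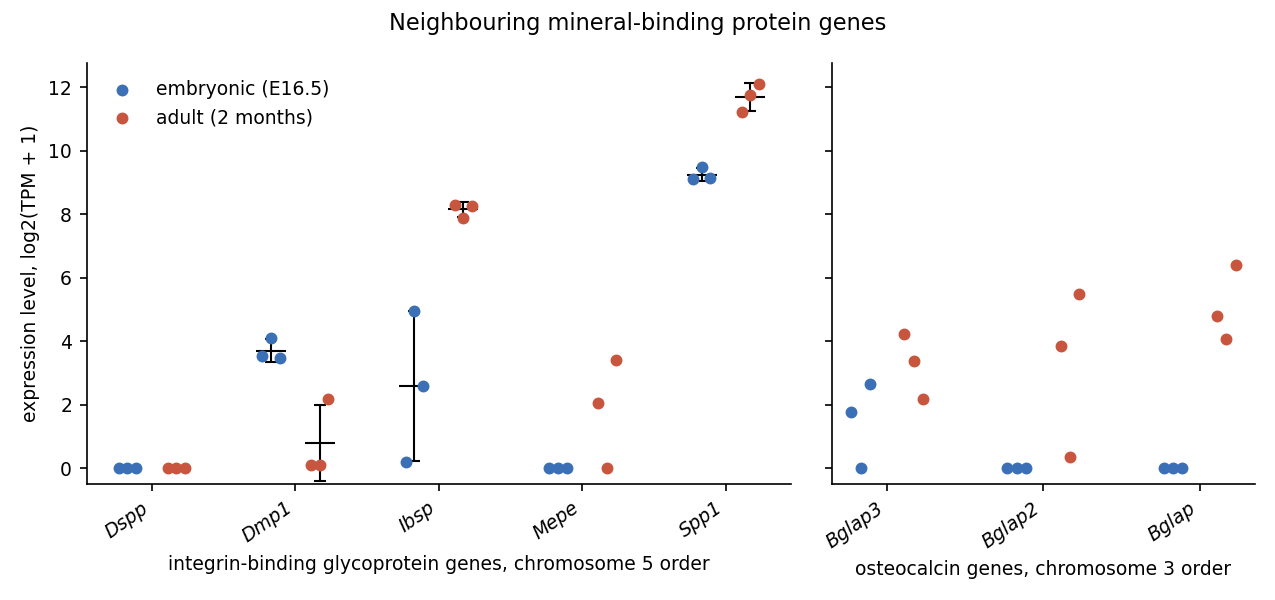
Level, as log2(TPM + 1), of the 5 integrin-binding glycoprotein genes on chromosome 5 and the 3 osteocalcin genes on chromosome 3, each in chromosomal order, in embryonic (blue) and adult (red) samples, with mean and SD where no sample was at 0. *Dmp1* is higher in the embryo while *Ibsp* and *Spp1*, of the same cluster, are higher in the adult, and *Dspp* is at 0 throughout.

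Other genes of mineral handling, also chosen with earlier results of these data known, were counted in 4 lists of 53 genes, of which 41 were tested. Of those 41, 12 (29.3%) rose, next to 23.9% of all genes, 8 (19.5%) fell, next to 21.4%, and 21 did not pass the test. In the list of phosphate and pyrophosphate enzymes and transporters, 9 of 16 genes were tested, 2 rose, 2 fell and 5 did not pass. Their median difference was -0.53, but 0.26 with the filter raised to 5 TPM and -0.21 without adult sample 3. *Ank*, whose product is needed for pyrophosphate outside the cell, rose by 1.84 ± 0.15 (SE, limma adjusted p = 3.26e-05), from 114, 128 and 128 TPM to 423, 538 and 383 TPM. *Nt5e*, the ectonucleotidase CD73 that makes adenosine, rose by 1.38 (adjusted p = 5.71e-05). *Ppa1*, a cytosolic pyrophosphatase, fell by 0.95 (adjusted p = 0.00269). *Enpp3*, a relative of *Enpp1*, fell from 1.95, 2.43 and 3.45 TPM to 0, 0.311 and 0 TPM (adjusted p = 0.0172), and passed the filter only through its embryonic values, which fixed its direction. *Slc34a1*, *Slc34a2* and *Slc34a3*, phosphate transporters of kidney and gut, were at 0 in every sample. The other tested genes of this list moved in both directions without passing.

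In the list of mineral-binding and inhibiting proteins, 12 of 15 genes were tested, 5 rose, 3 fell and 4 did not pass, with a median difference of 1.80, or 0.87 with the osteocalcin copies summed into *Bglap*. Among them *Bglap2*, which rose, and *Mepe*, which did not pass, were at 0 in the embryo and tested only through their adult values. *Omd*, osteomodulin, rose by 3.74 (limma adjusted p = 7.51e-05) and *Tnfrsf11b*, osteoprotegerin, by 3.53 (adjusted p = 8.42e-07), while *Clec3b*, tetranectin, fell by 3.90 (adjusted p = 7.58e-06). *Ucma*, a Gla protein of cartilage, differed by -0.30 (adjusted p = 0.505). *Sparc* (2.34) and *Lgals3* (2.39), named after their values were seen, also rose, and *Pros1*, a vitamin K-dependent plasma protein, fell by 1.71.

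In the list of the vitamin K cycle, matrix protein kinases and phosphate hormones, 9 of 11 genes were tested, 2 rose, 3 fell and 4 did not pass. Their median was -0.54, or -0.27 without adult sample 1 and -0.28 without embryonic sample 3. *Fam20c*, the Golgi kinase that phosphorylates secreted proteins such as osteopontin and bone sialoprotein, was at 38.5, 33.6 and 28.3 TPM in the embryonic and 393, 296 and 350 TPM in the adult samples, a rise of 3.33 (limma adjusted p = 2.23e-06). *Vkorc1*, which recycles the vitamin K that Mgp and osteocalcin need for carboxylation, went from 171, 178 and 202 TPM to 14.4, 69.8 and 49.1 TPM and fell by 2.28 (adjusted p = 0.00448), or by 1.63 without adult sample 1. *Vkorc1l1*, its paralog, fell by 0.87 (adjusted p = 0.0167). *Casr*, the calcium-sensing receptor, rose from 2.23, 1.34 and 0 TPM to 3.55, 10.5 and 6.72 TPM (adjusted p = 0.0257), and *Galnt3*, which glycosylates the phosphate hormone FGF23, fell by 0.99 (adjusted p = 0.0388). Both of the last calls, and that of *Vkorc1l1*, were lost when some single samples were left out.

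In the list of transcription factors of bone and hypertrophic cartilage, all 11 genes were tested, 3 rose, none fell and 8 did not pass. Their median of 0.09 had no stable sign, at -0.05 under median-of-ratios scaling, -0.21 without adult sample 1, -0.10 without embryonic sample 3 and 0.31 without adult sample 2. The 3 were the homeobox genes *Dlx5* (2.94, limma adjusted p = 0.000181), *Dlx3* (1.86, adjusted p = 0.00312) and *Dlx6* (1.56, adjusted p = 0.0286, lost without any of 5 single samples). *Dlx5* was at 8.24, 3.17 and 4.99 TPM in the embryonic and 43.1, 51.4 and 44.3 TPM in the adult samples. *Runx2*, the master regulator of osteoblasts, differed by -0.72 (adjusted p = 0.0659, past the threshold under quantile normalization at 0.0289 and median-of-ratios scaling at 0.0327, and without adult sample 3 at 0.039), and *Sp7*, osterix, by -0.58 (adjusted p = 0.45) at levels of at most 3.26 TPM. *Sp7* passed the filter only through its embryonic values and *Msx2*, which did not pass the test, only through its adult values. The filter thus fixed the direction of both. Among the 4 lists without a filter on low values, the calls of *Dmp1*, *Vkorc1*, *Vkorc1l1*, *Casr*, *Galnt3*, *Dlx6*, *Bglap2* and *Sparc* were lost.

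**Figure D5:**
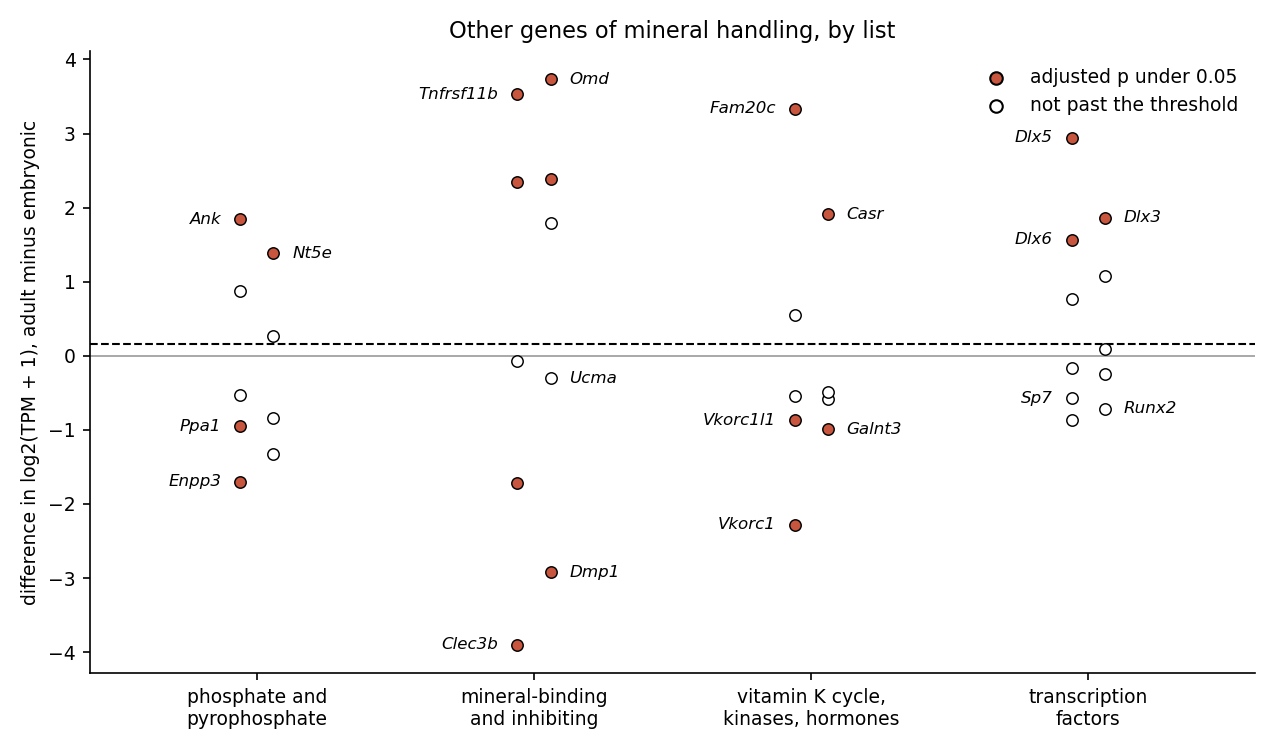
Adult minus embryonic difference in log2(TPM + 1) of the tested genes of 4 lists, with filled points at a limma adjusted p under 0.05, a solid line at 0 and a dashed line at the median of all genes (0.16). *Bglap2* and *Mepe*, at 0 in the embryo, are not drawn. The named genes run from -3.90 for *Clec3b* to 3.74 for *Omd*.

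Markers of other cells were read beside these values. The summed 10 osteoblast and osteocyte markers were at 7619 to 9430 TPM in the embryonic and at 552 to 1351 TPM in the adult samples, with *Col1a1* falling by 3.75 and *Col1a2* by 2.51, and *Sost* at 0 in all samples. Both collagens, which fibroblasts also make, held 95.6% to 99.5% of each sum, and the other 8 markers summed to 40.2 to 55.8 TPM in the embryonic and 24.2 to 38.9 TPM in the adult samples, a split made after the values were seen, as is the next. *Ibsp* and *Bglap*, also made by osteoblasts, moved the other way. Of the 10 markers 1 lay higher in every adult sample and 4 lay higher in every embryonic sample. Over all 13125 genes tested, 4023 lay higher in every adult sample and 3397 in every embryonic sample, the background for such marker counts. The summed 5 markers of hypertrophic chondrocytes, the cells of mineralizing cartilage, were at 56.7 to 110 TPM in the embryonic and at 969 to 1343 TPM in the adult samples. *Col10a1* rose by 5.29 (limma adjusted p = 0.000137), or by 6.09 without embryonic sample 2, and *Mmp13* by 4.28, while 3 of the 5 markers, *Panx3*, *Ihh* and *Runx2*, lay higher in every embryonic sample. *Panx3* fell from 6.07, 3.37 and 7.38 TPM to 0, 0.569 and 0 TPM and *Ihh* was listed at 0 in the adult. *Panx3* passed the filter only through its embryonic values, which fixed its direction. Without *Col10a1* and *Mmp13* the other 3 markers summed to 30.2 to 43.3 TPM in the embryonic and 12.4 to 21.3 TPM in the adult samples. Embryonic sample 2, the highest of its stage for *Ibsp*, was also the highest for *Col10a1*, at 72.4 TPM next to 14.5 and 11.4 TPM. The other markers of this list did not peak in that sample. *Panx3* and *Ihh* (2.23, 0.597 and 1.13 TPM in embryonic samples 1 to 3) were lowest there. Among the embryonic samples, *Mmp13* was highest in sample 3 and *Runx2* in sample 1.

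The summed 7 markers of osteoclasts and macrophages were at 93.1 to 118 TPM in the embryonic and at 325 to 578 TPM in the adult samples. *Ctsk* held most of each sum, at 91.7, 80.1 and 102 TPM in the embryonic and 270, 302 and 530 TPM in the adult samples. *Mmp9* differed by 0.06 (limma adjusted p = 0.936). *Acp5* (2.91), *Ctsk* (1.94) and *Cd68* (1.73), named after their values were seen, rose, while *Csf1r* was at most 1.54 TPM, *Adgre1* at most 0.162 TPM and *Calcr* at most 0.442 TPM. The 5 leukocyte markers summed to 0.113 to 1.08 TPM in the embryonic and 1.92 to 47.7 TPM in the adult samples. Sums of erythroid markers (0.312 to 133 and 2.68 to 33.8 TPM), endothelial markers (1.66 to 14.3 and 2.90 to 13.4 TPM) and skeletal muscle markers (6.14 to 25.6 and 3.14 to 16.1 TPM) overlapped between the stages. The 6 tendon and fibroblast markers summed to 618 to 811 TPM in the embryonic and 209 to 302 TPM in the adult samples. The 9 chondrocyte markers summed to 21791 to 23572 TPM in the embryonic and to 9338 to 12328 TPM in the adult samples, with *Col2a1* at 3166 TPM or more in each sample. *Col2a1*, the largest single part of each sum, fell by 1.73, while *Comp* (1.89) and *Sox9* (0.69), named after their values were seen, rose. Of the 9 markers, 2 lay higher in every adult sample and 5 in every embryonic sample. *Bmpr1b*, the sort gene, was at 20.3, 19.0 and 16.4 TPM and at 4.51, 18.5 and 13.4 TPM (difference -0.76, adjusted p = 0.199). The part of these cell types in the members' differences was not tested.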

How the data were processed

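RNA sequencing of sorted mouse knee chondrocytes gave 3 embryonic and 3 adult samples, grouped by their labels. Per the methods, cDNA was made with a Nugen Ovation kit and the library with a Kapa LTP kit (the labels name a Kapa mRNA-Seq kit). The libraries were sequenced as single-end reads of 50 bases. From reads aligned to GRCm38 the authors computed TPM with RSEM on RefSeq annotations, and deposited log2(TPM + 1) values. The RSEM version, strandedness and any gene filter are not given in the sources used here. All samples had one TPM total, which keeps no depth, so no counting error can be given and the precision rests on 3 samples per stage.

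Symbols and positions were taken from GENCODE M21 (21902 of 22032 identifiers had a symbol). The stages were compared by limma 3.58.1 (R 4.3.3, lmFit and eBayes with trend) on log2(TPM + 1), a pseudocount of 1, over genes whose mean reached 1 TPM, with Benjamini-Hochberg adjustment over all 13125 genes and a threshold of 0.05. EBSeq, named in the methods, needs counts and was not used here. The script was tested on simulated data. Ratios within samples used an exact permutation test in Python 3.11.15. Transcripts were compared by shared 50-base stretches, and promoters were read from RefSeq GRCm38.p6.

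The members and lists were chosen with earlier results of these data known. All members were named; of each list up to 5 genes past the threshold with the largest change were named, besides *Ank*, *Bglap2*, *Bglap3*, *Dmp1*, *Mepe*, *Runx2*, *Sp7*, *Ucma* and the defining cell markers. Other settings tried were a pseudocount of 0.1, a filter at 5 TPM or none, quantile, median-of-ratios or rescaled values without the 20 highest genes, 2 other variance models, a replicate block, an adjusted p under 0.01, summed osteocalcin genes and each sample left out in turn. Human and pig data were not used here.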

Additional observations from a re-analysis of the deposited data

How the results depend on the processing

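Of the 9 tested mineralization genes, 8 stayed higher in the adult and past the threshold under every alternative run (15 each, 16 for *Bglap*), and *Enpp1* stayed higher but missed it under 6. The direction of *Bglap*, at 0 in every embryonic sample, was fixed by the filter, so that its runs are no test of direction. The count of members past the threshold was 8 to 9 throughout, 8 of 10 with no filter, and 8 of the members kept separate stage ranges under median-of-ratios scaling instead of 9. At an adjusted p under 0.01, 3718 of all genes passed instead of 5949. The list of mineral-binding proteins had 5 calls with no filter instead of 8. The vitamin K and hormone list had 1 call with no filter and 2 at an adjusted p under 0.01 instead of 5, and 2 to 4 when single samples were left out, with 2 without embryonic sample 2 or 3 and 3 without adult sample 2. The list of transcription factors had 5 calls under both quantile normalization and median-of-ratios scaling instead of 3. *Ucma*, which did not pass in any fit, ran from -0.61 without adult sample 2 to 0.10 without adult sample 1, where its direction turned. Leaving out a sample can only raise the share of genes with separate stage ranges, which went from 56.5% to between 61.8% and 65.3%. It moved the difference in the *Alpl* to *Enpp1* ratio to between 0.27 and 0.69. The causes of the other shifts were not tested.

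The labels give both stages the replicate numbers 1 to 3. Samples of the same number did not deviate together (r = -0.0088, -0.017 and -0.022 across genes), and those of different numbers ran from -0.0017 to 0.016. With 3 samples per stage this check cannot settle whether the numbers pair samples, which is not given in the sources used here. With the replicate block, 5430 of all genes passed, all 9 tested members passed, and the 4 lists had 4, 8, 4 and 3 calls, with the call of *Galnt3* lost.

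The number of samples limits the precision. TPM carries no depth, so that no counting error is known for genes of a few TPM, such as *Ahsg*, *Mepe* and *Bglap3*. Their tests are to be read beside their values, and a value of 0 is no measure of absence.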
